A study of Mus musculus with 12 samples.

Results

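Solute carriers are membrane proteins that move amino acids, sugars, lactate, nucleosides, vitamins, lipids, copper and other ions across the plasma membrane and the membranes of mitochondria, lysosomes and the Golgi. In macrophages and other leukocytes the entry of amino acids, folate and nucleosides supplies growth and protein synthesis, and lysosomal carriers return digested material to the cytosol. The expressed solute carriers described here are the gene symbols of the form Slc plus a number whose mean over the 12 libraries was at least 1 FPKM (fragments scaled by transcript length and library total). The unit of the deposited values is not stated and was taken as FPKM. Slc7a2 and the families Slc11, Slc30, Slc39 and Slc40, which carry mainly metals, were left out by name. Of 370 such symbols 28 were left out, 196 were below the minimum, of which 60 were at 0 in every library, and 146 remained, in 39 families, among 21851 gene symbols in all.

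Peritoneal lavage cells of C57BL/6J mice were sequenced as bulk RNA in 4 groups of 3 libraries. The groups were wild type with an intraperitoneal injection of PBS, wild type with LPS, lactoferrin knockout with PBS and lactoferrin knockout with LPS. LPS is the lipopolysaccharide of the Gram-negative outer membrane, and lactoferrin, the product of Ltf, binds iron and is stored in neutrophil granules. The stated purpose is to find expression changes that lactoferrin deficiency brings during LPS inflammation. The sources used here do not give the dose, the time after injection, the age of the mice or how the allele was made. They also do not say whether a library is 1 mouse or a pool, so that p-values measure only the spread between libraries, which may be technical.

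Knockout libraries carry titles that say wild type, but codes, descriptions and characteristics that say knockout, and these were followed. Ltf was at 1.89, 1.23 and 1.16 FPKM in the wild-type PBS libraries and at 0.183, 0.258 and 0.212 in the knockout PBS libraries. With LPS it was at 0.176, 1.33 and 0.275 in wild type and at 0.117, 0.0832 and 0.0699 in the knockout. Wild-type LPS replicates 1 and 3 thus lay near the knockout PBS libraries, though above all 3 knockout LPS libraries. Haemoglobin transcripts summed to 2203 FPKM in wild-type LPS replicate 2 and to 1867 in knockout LPS replicate 1, against 4.46 to 327 in the other 10. Wild-type PBS replicate 3 stood apart among the solute carriers: 6 lay more than 2-fold above and 3 more than 2-fold below both other libraries of its group. It gave rank correlations of 0.972 and 0.976 with them, against 0.98 to 0.985 for the other pairs. FPKM keep no read depth, so no counting interval can be given.

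Summed marker RNA of large peritoneal macrophages, B cells and monocytes was lower in every LPS library than in every PBS library of the same genotype. Summed markers of large peritoneal macrophages (6 of 6 measured at 1 FPKM or more) ran from 795.8 to 1584 FPKM in wild type with PBS and from 376.8 to 576.6 with LPS, and from 1046 to 1374 and from 360.5 to 473.4 in the knockout. Among them Timd4 did not follow the sum in wild type, at 82.7, 47.4 and 111 FPKM with PBS and 145, 87.9 and 78.1 with LPS. B cell markers (4 of 4) ran from 487.5 to 1047 and from 200.9 to 291 in wild type, and from 613.1 to 846.3 and from 122.5 to 213.1 in the knockout. Monocyte markers (4 of 4) ran from 1688 to 2534 and from 801 to 1213 in wild type, and from 2166 to 2737 and from 727.3 to 1226 in the knockout. Fn1 made up most of that sum, at 1487, 1133 and 2367 FPKM with PBS and 1185, 776 and 914 with LPS in wild type, while Ccr2 was at 57.7, 65.5 and 46.5 and at 2.15, 1.60 and 2.22. Neutrophil markers (6 of 6) ran from 1936 to 3225 and from 151.2 to 276.8 in wild type, and from 1177 to 2985 and from 707.2 to 2655 in the knockout. S100a8 and S100a9 made up most of the neutrophil sum. Csf3r overlapped between treatments in wild type, at 89.2, 86.8 and 48.6 with PBS and 52.2, 49.3 and 38.9 with LPS. The neutrophil marker Ly6g was at 0 in wild-type LPS replicates 1 and 2. T cell markers (4 of 4) ran from 23.21 to 33.52 FPKM in wild type with PBS and from 4.939 to 14.92 in the other groups. Mast cell markers (5 of 5) ran from 230.2 to 708.5 over the PBS libraries and from 407.3 to 558.5 over the LPS libraries. Mesothelial markers (0 of 4 at 1 FPKM or more) stayed at 3.645 or less. The part of these shifts in the results on solute carriers was not tested, and in bulk RNA fewer cells of a type and less RNA per cell cannot be told apart.

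The levels of the members spanned 1.01 to 400.2 FPKM in the mean of 12 libraries, with a median of 7.10 against 8.93 over all 9841 genes at or above the same minimum. Of the 146, 89 reached 5 FPKM, 54 reached 10, 9 reached 50 and 3 reached 100. The 3 were the ADP/ATP carrier Slc25a5 at 400.2, the mitochondrial phosphate carrier Slc25a3 at 198 and Slc15a3, a histidine and peptide carrier of endolysosomes, at 134. All 146 were above 0 in every library, and together they made up 0.637% to 0.686% of all FPKM in 5 of the 6 PBS libraries, 0.563% in wild-type PBS replicate 3, 0.736% to 0.791% in the wild-type LPS libraries and 0.691% to 0.71% in the knockout LPS libraries. The minimum chose by level: just inside it lay Slc22a17 at 1.01, Slc52a3 at 1.02 and Slc25a40 at 1.17, and just outside Slc2a9 at 0.967, Slc26a11 at 0.899 and Slc16a7 at 0.893. In 129 members every group mean was at least 1 FPKM. The other 17 reached the minimum while some group mean was below 1, so that a difference between groups was built into their choice: Slc1a4, Slc6a9, Slc9a3r2, Slc10a6, Slc17a5, Slc22a15, Slc22a17, Slc29a2, Slc2a8, Slc35a1, Slc35f2, Slc37a2, Slc38a9, Slc41a3, Slc46a3, Slc52a3 and Slc9a9. Counts over members are given below as description, beside the same count over all tested genes, which met the same minimum.

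The RefSeq promoters of 4 members with strong LPS responses are shown first, Slc1a4 and Slc16a1, which rose, and Slc9a3r2 and Slc43a2, which fell. Slc16a1 was not taken by rank. Slc19a1 and Slc6a9, which also have RefSeq entries, rose more in wild type, at log2 differences of 2.39 and 2.31 against 2.20. For Slc9a3r2 and Slc43a2 the RefSeq table lists 2 promoters each, of which the first is shown. The 250 bases before the start are given on the strand of the gene in the build GRCm38.p6: Slc1a4 at chr11:20332714-20332963 on the minus strand, Slc16a1 at chr3:104638414-104638663 on the plus strand, Slc9a3r2 at chr17:24650306-24650555 on the minus strand and Slc43a2 at chr11:75531444-75531693 on the plus strand. Capitals mark a match to any of 4 motifs, searched on both strands: the kappa B motif, TGACNNNGC (core of the antioxidant response element), TGATGNAAT (C/EBP-ATF response element) and ACGTG (core of the hypoxia response element, which lies within the E-box CACGTG). The last 22 bases of the Slc9a3r2 stretch lie inside the gene as GENCODE places it, and the other 3 stretches end before their gene.
Slc1a4: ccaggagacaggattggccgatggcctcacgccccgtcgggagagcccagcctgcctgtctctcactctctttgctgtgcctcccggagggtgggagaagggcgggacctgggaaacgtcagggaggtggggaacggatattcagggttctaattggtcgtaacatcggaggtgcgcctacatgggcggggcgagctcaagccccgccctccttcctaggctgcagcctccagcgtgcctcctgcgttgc
Slc16a1: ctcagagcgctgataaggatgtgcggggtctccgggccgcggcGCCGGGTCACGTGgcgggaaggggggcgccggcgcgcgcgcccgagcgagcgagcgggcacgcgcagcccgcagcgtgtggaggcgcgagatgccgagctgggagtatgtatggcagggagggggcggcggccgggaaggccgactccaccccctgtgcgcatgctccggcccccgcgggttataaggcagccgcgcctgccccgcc
Slc9a3r2: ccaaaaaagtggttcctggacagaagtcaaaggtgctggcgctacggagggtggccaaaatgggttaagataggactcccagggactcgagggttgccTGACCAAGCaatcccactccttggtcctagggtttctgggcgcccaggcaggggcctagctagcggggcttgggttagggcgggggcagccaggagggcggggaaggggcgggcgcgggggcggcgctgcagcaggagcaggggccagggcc
Slc43a2: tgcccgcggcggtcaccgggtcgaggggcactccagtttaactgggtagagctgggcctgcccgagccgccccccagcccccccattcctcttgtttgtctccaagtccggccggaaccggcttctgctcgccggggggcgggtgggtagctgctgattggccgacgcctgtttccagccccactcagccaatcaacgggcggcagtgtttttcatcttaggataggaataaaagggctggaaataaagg
The Slc16a1 stretch held the antioxidant core from base -207 to -199 on the minus strand, overlapping ACGTG from -199 to -195 and its reverse from -200 to -196. The Slc9a3r2 stretch held TGACCAAGC from -152 to -144, and the other 2 held no match. RefSeq entries were found for 114 members with 155 promoters. Of these 155, 18.1% held TGACNNNGC, 23.9% ACGTG, 0.645% the kappa B motif (Slc37a4) and 0% TGATGNAAT, against 10.2%, 16.6%, 0.356% and 0.816% of all 32851 promoters. Unlike the members, the 32851 were not limited to genes that reached the minimum level, and the shares were not tested. A match is a run of letters and no evidence of binding.

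LPS in wild type changed the level of 100 of the 146 members at a limma adjusted p under 0.05, which is 68.5%, against a background of 62.2% of all genes tested. It raised 38, or 26% (background 24.8%), and lowered 62, or 42.5% (background 37.4%). Among the carriers that rose most were the neutral amino acid carriers Slc1a4 and Slc7a5, the folate carrier Slc19a1, the lactate carrier Slc16a1 and the nucleoside carrier Slc29a1. Those that fell most were the scaffold gene Slc9a3r2, the amino acid carrier Slc43a2 and the mitochondrial carriers Slc25a24 and Slc25a45. Slc1a4 and Slc9a3r2 are among the members listed above whose choice had a difference between groups built in. The median of the members was a log2 difference of -0.22, against -0.11 over all genes. Of the members called, 16 rose (background 7.01% of all genes) and 23 fell (background 13.8%) by at least 1 on the log2 scale of FPKM + 1, on which low genes are understated. Together these were 26.7% of the members against 20.8% of all genes.

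LPS in the knockout changed 84 members, or 57.5% (background 53.2%), of which 33 rose (22.6%, background 19.9%) and 51 fell (34.9%, background 33.3%). These shares lay near the background in both genotypes. By at least 1 on the log2 scale 13 rose (background 4.83%) and 15 fell (background 10.5%), together 19.2% of the members against 15.3% of all genes. Scaling the libraries by the median of ratios moved the median of all genes by over 0.1, from -0.11 to 0.05 in wild type and from -0.13 to 0.04 in the knockout. The calls then became 50 up and 51 down in wild type and 44 up and 41 down in the knockout, so that the share of higher calls moved from 38% to 49.5% and from 39.3% to 51.8%. Of all genes, 33.8% were then higher and 29.2% lower in wild type, and 29.8% and 24.6% in the knockout. Under both scalings 38 members rose and 51 fell in wild type, and 33 rose and 41 fell in the knockout. The excess of lower over higher calls therefore depends on the scaling, while the members named below as rising or falling, apart from Slc25a37 in wild type and Slc35a2 and Slc37a4 in the knockout, were called in the same direction under both.

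Both genotypes called 76 members, 32 up, 44 down and 0 in opposite directions, which is 76% of the wild-type calls and 90.5% of the knockout calls, against 75.5% and 88.3% over all genes tested. A further 24 were called in wild type alone, 8 in the knockout alone and 38 in neither, and 133 of the 146, or 91.1%, had the same sign, against 87.7% of all genes. Passing in one genotype and missing in the other is no test of a difference, and the test of the difference is given with the genotypes below.

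**Figure D1:**
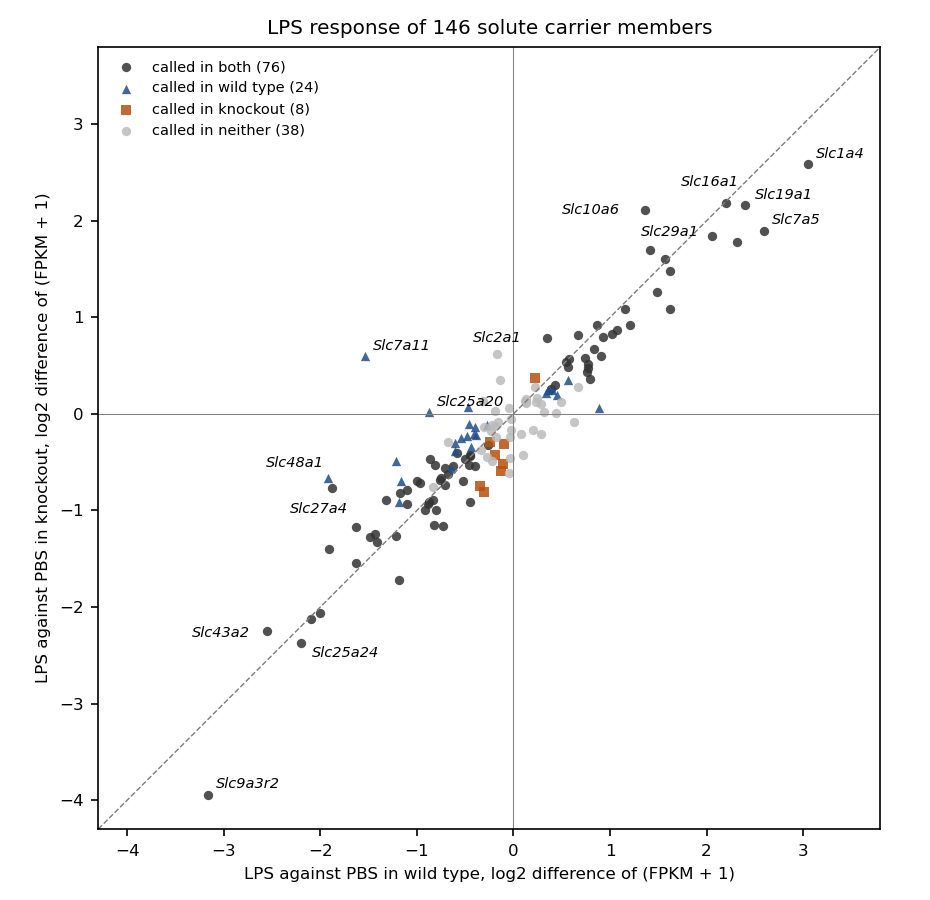
LPS response of the 146 members, as the log2 difference of FPKM + 1 between LPS and PBS groups, in wild type (horizontal axis) and in the knockout (vertical axis), 1 symbol per gene by where it was called. The dashed line marks equal responses; 133 genes share a sign, Slc1a4 is at the upper and Slc9a3r2 at the lower end, and Slc7a11 lies off the line at -1.54 and 0.60.

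The counts by role that follow stand beside the shares of all genes, 24.8% higher and 37.4% lower in wild type and 19.9% and 33.3% in the knockout, and no role was tested against them. Of the 25 amino acid and peptide carriers, grouped by family, 10 rose (40%) and 8 fell (32%) in wild type and 9 rose (36%) and 6 fell (24%) in the knockout, with 10 and 8, and 10 and 6, under the median of ratios. Slc1a4 (ASCT1, chr11:20302180-20332713), a carrier of small neutral amino acids, was at 0.603, 0.392 and 0.258 FPKM with PBS and 8.02, 12.7 and 11.8 with LPS in wild type, and at 0.516, 0.503 and 0.311 with PBS and 7.04, 10.2 and 6.27 with LPS in the knockout. The LPS libraries lay above every PBS library in both genotypes, by 26-fold and 17.6-fold in the group means. The PBS means, 0.417 and 0.444 FPKM, were below the minimum, so that Slc1a4 reached it through its LPS groups. The log2 difference was 3.05 ± 0.19 SE (limma adjusted p = 6.77e-07) in wild type and 2.59 ± 0.19 SE (limma adjusted p = 2.18e-06) in the knockout. Slc7a5 (LAT1, chr8:121881150-121907694) imports large neutral amino acids such as leucine, paired with the heavy chain that Slc3a2 encodes. Slc7a5 was at 29.9, 17.5 and 14.03 FPKM with PBS and 104, 126 and 141 with LPS in wild type, and at 25.7, 23.2 and 23.6 with PBS and 101, 108 and 72.9 with LPS in the knockout. Its log2 rise was 2.59 ± 0.24 SE (limma adjusted p = 7.51e-06) in wild type and 1.90 ± 0.24 SE (limma adjusted p = 7.56e-05) in the knockout, again with no overlap. Slc3a2 (CD98 heavy chain) went from 27.9, 31.6 and 17.7 to 40.2, 50.4 and 49.5 FPKM in wild type and from 24.9, 29.2 and 22.4 to 58.9, 50.4 and 39.3 in the knockout, a smaller rise of 0.87 ± 0.21 SE (limma adjusted p = 0.00379) and 0.92 ± 0.21 SE (limma adjusted p = 0.00338). With LPS the FPKM of Slc7a5 were thus above those of Slc3a2 in every library, while with PBS Slc3a2 was the higher of the pair in 3 of the 6.

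Slc1a5 (ASCT2), which carries glutamine, was among the highest amino acid carriers already with PBS, at 74.6, 54.5 and 52.9 FPKM in wild type, and reached 99.4, 121 and 121 with LPS. In the knockout it went from 71.05, 56.95 and 58.7 to 99.3, 106 and 78.99, and the log2 rise was 0.91 ± 0.17 SE (limma adjusted p = 0.000624) in wild type and 0.59 ± 0.17 SE (limma adjusted p = 0.0101) in the knockout. Slc7a1, which carries arginine and lysine, went from 20.5, 14.6 and 13.9 to 45.5, 49.2 and 60.8 FPKM in wild type and from 17.96, 17.4 and 18.03 to 37.7, 46.1 and 33.9 in the knockout. That is 1.62 ± 0.16 SE (limma adjusted p = 1.25e-05) and 1.09 ± 0.16 SE (limma adjusted p = 0.000231) on the log2 scale. Slc6a9, the glycine carrier GLYT1, rose from at most 0.364 FPKM in any PBS library to 3.08, 7.8 and 6.44 in wild type and 2.46, 3.77 and 3.52 in the knockout. Slc43a3, which belongs to the same family as Slc43a2 but carries purine nucleobases, went from 1.86, 1.91 and 1.83 to 7.21, 7.77 and 8.46 FPKM in wild type and from 1.25, 1.18 and 2 to 6.53, 6 and 5.04 in the knockout. Both were called in both genotypes, Slc6a9 at 2.31 and 1.78 and Slc43a3 at 1.62 and 1.48. Slc6a9, like Slc1a4, reached the minimum through its LPS groups. The uptake carriers of small neutral amino acids Slc38a1 and Slc38a2 were not called in either genotype. Slc38a1 was at 18.8, 20.1 and 20.6 FPKM with PBS and 15.4, 17.6 and 19.6 with LPS in wild type, a difference of -0.18 (95% interval -0.46 to 0.11), and Slc38a2 differed by 0.22 (-0.20 to 0.64).

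Among the carriers that fell, Slc43a2 (LAT4, chr11:75531694-75577575), a carrier of branched-chain and other large neutral amino acids, was at 12.6, 15.3 and 19.6 FPKM with PBS and 1.85, 1.77 and 1.89 with LPS in wild type. In the knockout it was at 11.7, 16.2 and 11.5 with PBS and 2.25, 1.19 and 2.56 with LPS. Every LPS library lay below every PBS library, and Slc43a2 fell by 2.55 ± 0.20 SE (limma adjusted p = 2.8e-06) in wild type and by 2.25 ± 0.20 SE (limma adjusted p = 7.8e-06) in the knockout on the log2 scale. LAT1 and LAT4, which carry overlapping sets of amino acids, thus moved in opposite directions.

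The endolysosomal histidine and peptide carriers Slc15a3 and Slc15a4 also moved in opposite directions. Slc15a3 (PHT2, chr19:10839727-10859362) went from 93.5, 102 and 47.8 to 190.2, 165 and 167 FPKM in wild type and from 79.95, 100.2 and 88.5 to 199, 185 and 188 in the knockout, a log2 rise of 1.16 ± 0.23 SE (limma adjusted p = 0.00111) and 1.09 ± 0.23 SE (limma adjusted p = 0.00218). Slc15a4 (PHT1), which is needed for signalling by endosomal Toll-like receptors, went from 18.3, 19.2 and 21.3 to 5.92, 7.17 and 6.77 in wild type and from 18.5, 15.6 and 16.02 to 5.92, 6.56 and 6.96 in the knockout. On the log2 scale Slc15a4 fell by 1.44 ± 0.10 SE (limma adjusted p = 1.7e-06) and by 1.24 ± 0.10 SE (limma adjusted p = 5.38e-06). The next 3, carriers of lysosomes, were chosen after their values were seen. Slc36a1, a proton-coupled carrier of small amino acids, had log2 differences of -0.99 in wild type and -0.69 in the knockout. Slc38a9, the lysosomal arginine sensor of mTORC1, had -0.87 and -0.92, and the sialic acid exporter Slc17a5 had -1.63 and -1.55, each called down in both genotypes. The lysosomal glutamine carrier Slc38a7 was not called, at -0.14 and 0.35, and was called up in the knockout with the median of ratios.

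**Figure D2:**
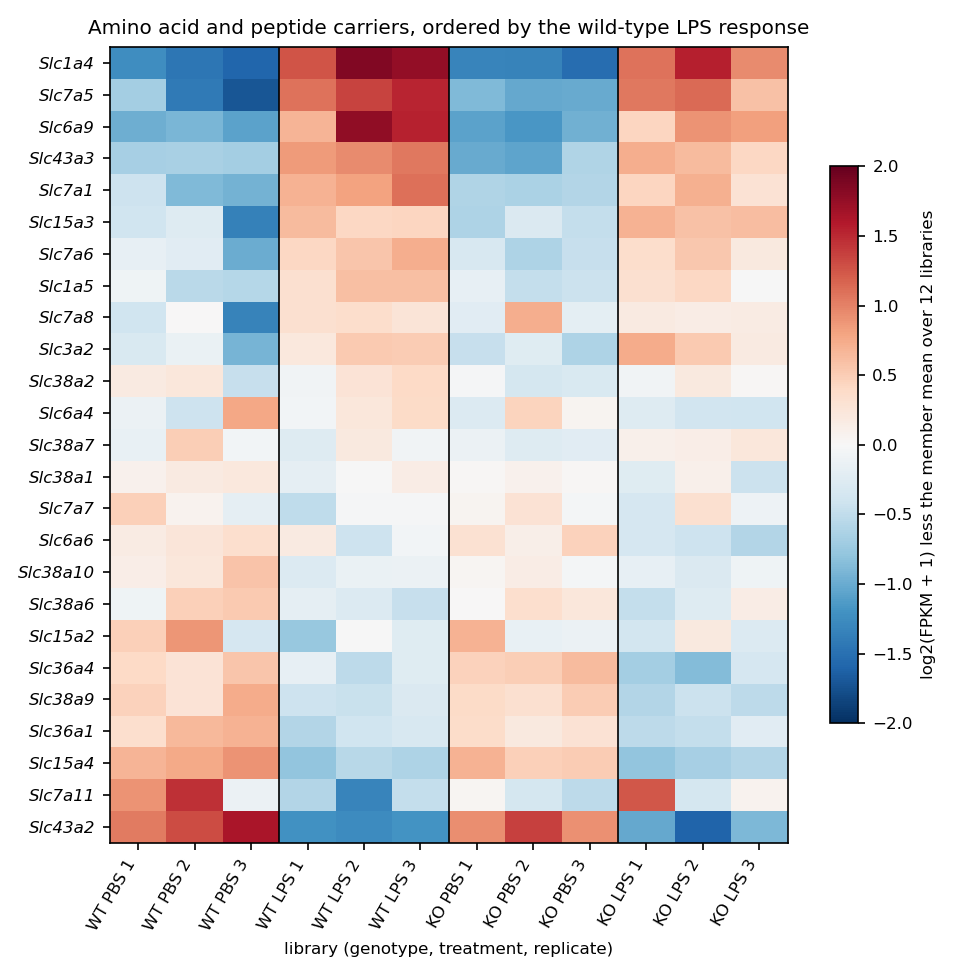
The 25 amino acid and peptide carriers (rows, ordered by the LPS response in wild type) in the 12 libraries (columns), as log2(FPKM + 1) less the mean of the gene over the 12 libraries; red is above and blue below that mean. Slc1a4 and Slc7a5 at the top are blue in all 6 PBS libraries and red in all 6 LPS libraries, and Slc43a2 at the bottom shows the reverse.

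Among the 5 members of the monocarboxylate family, 1 rose (20%) and 2 fell (40%) in wild type, and 1 rose (20%) and 0 fell (0%) in the knockout, with 2 and 2, and 1 and 0, under the median of ratios. Slc16a1 (MCT1, chr3:104638668-104658462), a proton-coupled carrier of lactate and pyruvate, was at 9.65, 10.1 and 5.89 FPKM with PBS and 46.4, 36.8 and 43.5 with LPS in wild type. In the knockout it was at 9.77, 8.48 and 7.94 with PBS and 42.3, 42.4 and 44.9 with LPS. Its rise was close to equal in size, 2.20 ± 0.17 SE (limma adjusted p = 2.32e-06) and 2.19 ± 0.17 SE (limma adjusted p = 3.07e-06). Slc16a3 (MCT4), the lactate exporter of glycolytic cells, went the other way in wild type, from 62.2, 71.2 and 36.2 to 20.5, 29.6 and 19.7 FPKM, and fell by 1.21 ± 0.32 SE (limma adjusted p = 0.00595). In the knockout Slc16a3 was at 78.8, 59.9 and 46.2 with PBS and 43.4, 28.4 and 62.8 with LPS, which overlap, with a log2 difference of -0.49 ± 0.32 SE (limma adjusted p = 0.214). Slc16a10, a carrier of aromatic amino acids, had -1.16 ± 0.35 SE (limma adjusted p = 0.0121) in wild type and -0.70 ± 0.35 SE (limma adjusted p = 0.109) in the knockout. Slc16a3 exceeded Slc16a1 in all 6 PBS libraries, by FPKM, and Slc16a1 exceeded Slc16a3 in the 3 wild-type LPS libraries, while in the knockout LPS libraries Slc16a3 was the higher in replicates 1 and 3 and the lower in replicate 2.

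Of the 12 members of the sugar families, 1 rose (8.33%) and 7 fell (58.3%) in wild type and 0 rose (0%) and 4 fell (33.3%) in the knockout, which became 2 and 6, and 2 and 2, with the median of ratios. The glucose carriers differed among themselves. Slc2a1 (GLUT1) was at 56.7, 74.3 and 32.2 FPKM with PBS and 41.4, 51.97 and 44.5 with LPS in wild type, which overlap, and at 51.1, 37.9 and 39.6 with PBS and 62.8, 61.4 and 73.2 with LPS in the knockout, which do not. Its log2 difference was -0.17 ± 0.24 SE (limma adjusted p = 0.574) in wild type and 0.62 ± 0.24 SE (limma adjusted p = 0.0518) in the knockout, neither past the threshold, and with the median of ratios it was called up in the knockout. Slc2a3 (GLUT3) fell, from 7.82, 9.19 and 6.53 to 2.92, 3.32 and 3.06 FPKM in wild type and from 9.83, 4.43 and 5.32 to 3.26, 2.9 and 2.19 in the knockout, by 1.10 ± 0.22 SE (limma adjusted p = 0.00118) and by 0.94 ± 0.22 SE (limma adjusted p = 0.00415). Slc2a6 (GLUT6, a lysosomal hexose carrier of macrophages) was at 68.9, 73.8 and 39.8 FPKM with PBS in wild type and between 72.95 and 88.76 FPKM in the other 9 libraries. It was not called in either genotype, at 0.44 (0.01 to 0.87) in wild type and 0.01 (-0.42 to 0.44) in the knockout, and with the median of ratios it was called up in wild type. Slc37a2, a carrier of glucose-6-phosphate in the endoplasmic reticulum, went from 4.13, 4.75 and 4.53 to 0.218, 0.668 and 0.508 FPKM in wild type and from 3.35, 3.71 and 3.69 to 0.501, 0.755 and 1 in the knockout. Slc37a4, of the same function, was called down in both genotypes, at -0.82 and -0.53. Slc5a6, the single sugar-family member called up in wild type (0.36), carries biotin, pantothenate and lipoate rather than sugar.

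The 33 mitochondrial carriers were 8 up (24.2%), 12 down (36.4%) and 13 not called in wild type, and 6 up (18.2%), 11 down (33.3%) and 16 not called in the knockout. With the median of ratios the balance turned, to 11 up and 7 down in wild type and 10 up and 9 down in the knockout. Slc25a5 (chrX:36795651-36798807), which exchanges ADP and ATP across the inner membrane, went from 339, 305 and 264 to 470.3, 553 and 527 FPKM in wild type and from 323, 339 and 316 to 481, 468 and 416 in the knockout. The LPS libraries lay above the PBS libraries in both, with 0.77 ± 0.12 SE (limma adjusted p = 0.000275) and 0.48 ± 0.12 SE (limma adjusted p = 0.00731). Its close copy Slc25a4 was not called, at 0.32 and 0.02, but was called up in wild type with the median of ratios (0.50, limma adjusted p = 0.0483). The sources used here do not say how reads were split between such copies. Slc25a33, which carries pyrimidine nucleotides, went from 3.1, 3.6 and 2.14 to 8.79, 11.99 and 11.2 in wild type and from 2.23, 2.41 and 2.67 to 9.9, 12.8 and 6.47 in the knockout, a rise of 1.57 ± 0.21 SE (limma adjusted p = 8.04e-05) and 1.60 ± 0.21 SE (limma adjusted p = 0.000105). Slc25a22, a glutamate carrier, was called up in both at 1.21 and 0.93. The citrate carrier Slc25a1 was at 22.2, 19.5 and 22.9 with PBS and 27.6, 31.6 and 28.98 with LPS in wild type and rose by 0.43 ± 0.11 SE (limma adjusted p = 0.00501) there and by 0.30 ± 0.11 SE (limma adjusted p = 0.0357) in the knockout. The knockout call of Slc25a1 was lost in 8 of the alternatives, with adjusted p up to 0.143.

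Slc25a24 (chr3:109123149-109168457), which exchanges ATP-Mg for phosphate, went from 12.2, 12.9 and 17.98 to 2.6, 1.75 and 2.64 FPKM in wild type and from 15.6, 15.1 and 12.98 to 2.32, 1.29 and 2.56 in the knockout. It fell by 2.20 ± 0.19 SE (limma adjusted p = 5.35e-06) and by 2.37 ± 0.19 SE (limma adjusted p = 4.12e-06), without overlap. Slc25a45 fell by 2.10 ± 0.15 SE (limma adjusted p = 1.86e-06) and by 2.13 ± 0.15 SE (limma adjusted p = 2.12e-06), from 10.92 or more in every PBS library to 2.901 or less in every LPS library. The dicarboxylate carrier Slc25a10 went from 2.56, 1.97 and 3.15 to 1.17, 1.06 and 1.25 FPKM in wild type, -0.71 on the log2 scale, with -0.73 in the knockout. Slc8b1, the sodium-calcium exchanger of the inner membrane, was also called down in both, at -1.18 and -0.82. The phosphate carrier Slc25a3 was at 203, 183 and 181 FPKM with PBS and 196, 217 and 209 with LPS in wild type, and its difference of 0.13 (95% interval -0.10 to 0.36) was not called. With the median of ratios Slc25a3 was called up in both genotypes, at 0.32 (limma adjusted p = 0.0166) and 0.35 (limma adjusted p = 0.0136).

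**Figure D3:**
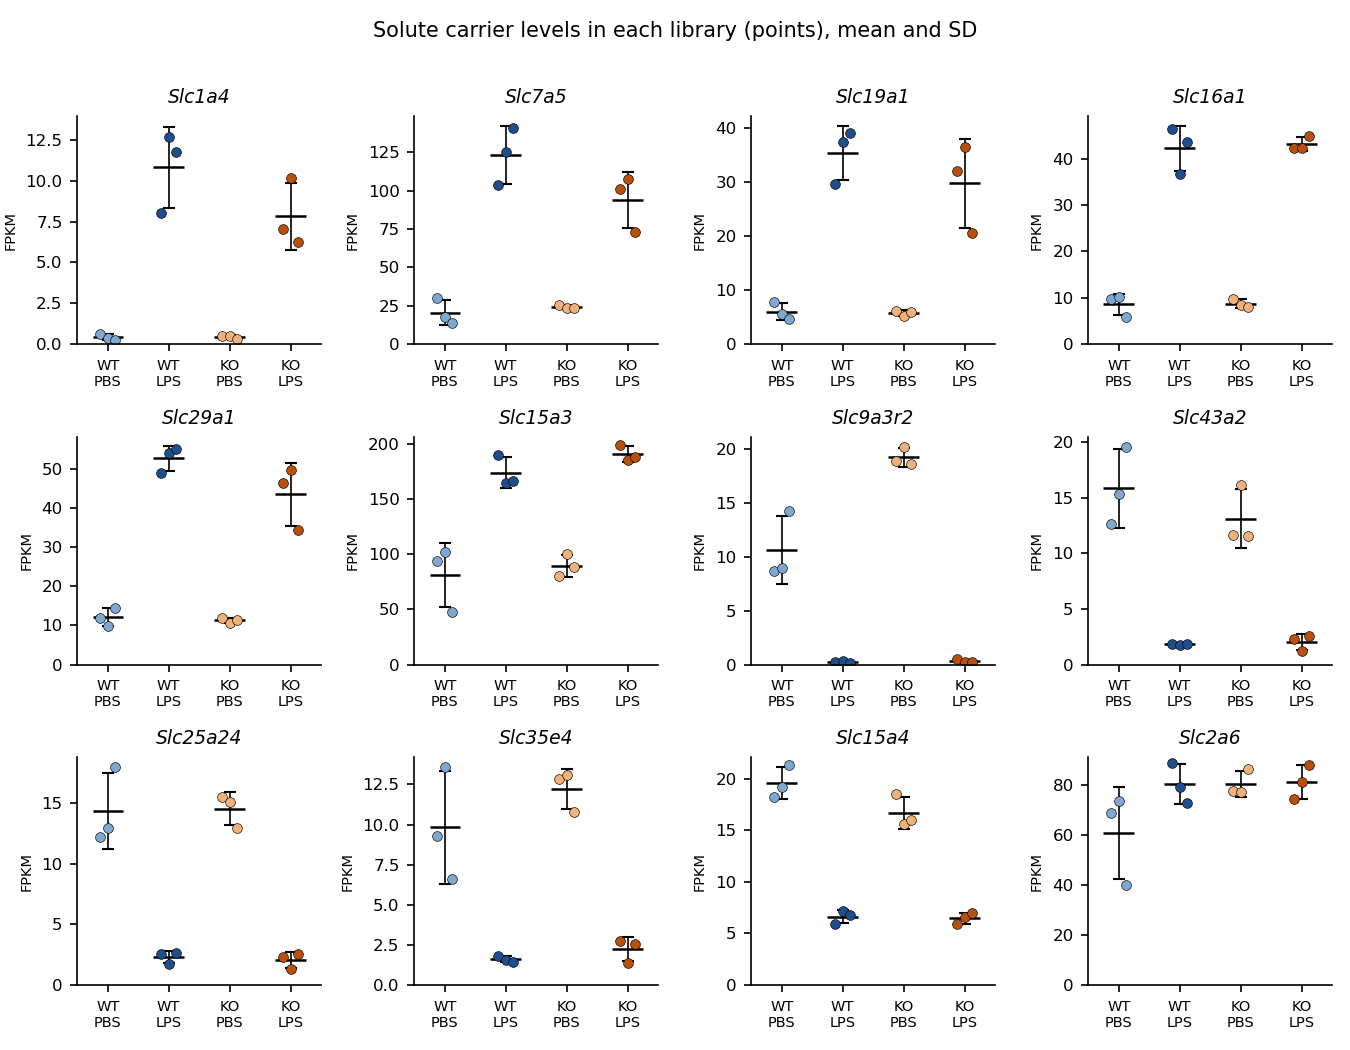
FPKM (vertical axes, linear from 0) of 12 members in the 4 groups (horizontal axes; WT wild type, KO lactoferrin knockout). Points are libraries, the horizontal bar is the group mean and the error bar 1 SD (n = 3); in Slc1a4, Slc16a1 and Slc29a1 all LPS points lie above all PBS points, in Slc9a3r2, Slc43a2 and Slc25a24 all lie below, and Slc2a6 overlaps.

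Of the 25 carriers of nucleosides and nucleotide sugars, 5 rose (20%) and 13 fell (52%) in each genotype, with 8 and 10 in wild type and 5 and 8 in the knockout under the median of ratios. The equilibrative nucleoside carriers of the plasma membrane rose and the lysosomal one fell. Slc29a1 (ENT1, chr17:45585200-45599606) went from 11.9, 9.87 and 14.4 to 49.2, 54.2 and 55.1 FPKM in wild type and from 11.9, 10.7 and 11.3 to 46.5, 49.8 and 34.4 in the knockout, with 2.06 ± 0.15 SE (limma adjusted p = 1.99e-06) and 1.84 ± 0.15 SE (limma adjusted p = 5.08e-06). Slc29a2 (ENT2) went from 1.42, 1.3 and 0.997 to 4.59, 5.19 and 5.04 in wild type and from 0.963, 0.738 and 1.04 to 5.64, 5.89 and 4.17 in the knockout, with 1.41 ± 0.13 SE (limma adjusted p = 7.41e-06) and 1.70 ± 0.13 SE (limma adjusted p = 3.01e-06). Slc29a3 (ENT3, of lysosomes) went from 11.99, 10.97 and 12.1 to 4.29, 4.39 and 5.06 in wild type and from 14.7, 13.98 and 13.7 to 4.3, 3.55 and 2.97 in the knockout. It fell by 1.19 ± 0.11 SE (limma adjusted p = 7.63e-06) and by 1.72 ± 0.11 SE (limma adjusted p = 9.67e-07). The concentrative nucleoside carrier Slc28a2 was not called, at 31.7, 35.7 and 22.2 FPKM with PBS and 56.9, 61.9 and 29.4 with LPS in wild type, and was called up there with the median of ratios (0.85, limma adjusted p = 0.0254). In the Slc35 family, which includes the carriers of nucleotide sugars into the Golgi and endoplasmic reticulum, 3 of 21 rose (14.3%) and 12 fell (57.1%) in wild type, or 5 and 9 with the median of ratios. Slc35e4 fell most among these, from 9.29, 13.6 and 6.62 to 1.81, 1.57 and 1.45 FPKM in wild type and from 12.8, 13.1 and 10.8 to 2.75, 1.38 and 2.55 in the knockout, with -2.003 ± 0.22 SE (limma adjusted p = 2.39e-05) and -2.06 ± 0.22 SE (limma adjusted p = 2.68e-05). The CMP-sialic acid carrier Slc35a1, the UDP-galactose carrier Slc35a2 and the GDP-fucose carrier Slc35c1 were called down in both genotypes. Their log2 differences were -0.58, -0.86 and -0.71 in wild type and -0.41, -0.47 and -0.56 in the knockout. Slc35a4 rose, by 0.76 ± 0.13 SE (limma adjusted p = 0.000408) and 0.43 ± 0.13 SE (limma adjusted p = 0.0155).

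Among the 22 carriers of inorganic ions and pH, 6 rose (27.3%) and 9 fell (40.9%) in wild type and 7 rose (31.8%) and 8 fell (36.4%) in the knockout, with 7 and 8, and 7 and 7, under the median of ratios. The potassium-chloride cotransporter Slc12a7 fell in both. It had log2 differences of -1.22 and -1.26, while the sodium-potassium-chloride cotransporter Slc12a2 had 0.84 and 0.68. The copper carriers Slc31a1 (CTR1) and Slc31a2 (CTR2), both on chromosome 4, were called up in both genotypes but near the threshold. Slc31a1 had 0.58 ± 0.21 SE (limma adjusted p = 0.0291) in wild type and 0.57 ± 0.21 SE (limma adjusted p = 0.0356) in the knockout, and Slc31a2 had 0.67 ± 0.27 SE (limma adjusted p = 0.0452) and 0.82 ± 0.27 SE (limma adjusted p = 0.0215). Slc31a2 was at 24.3, 38.6 and 19.9 FPKM with PBS and 49.8, 48.4 and 32.5 with LPS in wild type, which overlap. Leaving out single libraries or changing other settings ended the wild-type calls in 7 of the alternatives for Slc31a1 and in 12 for Slc31a2, with adjusted p up to 0.114 and 0.159. The knockout calls were lost in 8 of them for Slc31a1 and in 2 for Slc31a2, with adjusted p up to 0.136 and 0.0861.

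Of the 20 carriers of lipids, vitamins and other organic compounds, 6 rose (30%) and 10 fell (50%) in wild type and 4 rose (20%) and 8 fell (40%) in the knockout, with 7 and 9, and 6 and 8, under the median of ratios. Slc19a1 (chr10:77032241-77061002), the reduced folate carrier, went from 7.83, 5.48 and 4.7 to 29.7, 37.5 and 39.1 FPKM in wild type and from 6.09, 5.12 and 5.9 to 32.1, 36.5 and 20.6 in the knockout. The LPS libraries lay above the PBS libraries throughout, with 2.39 ± 0.21 SE (limma adjusted p = 5.82e-06) and 2.16 ± 0.21 SE (limma adjusted p = 1.39e-05). The thiamine carrier Slc19a2 rose in both as well, at 1.07 and 0.86. Slc10a6, a carrier of sulphated steroids, went from 1.04, 1.84 and 2.61 to 6.29, 6.19 and 5.79 FPKM in wild type and from 0.395, 1.14 and 1.25 to 9.13, 8.99 and 4.38 in the knockout, with 1.36 ± 0.27 SE (limma adjusted p = 0.00119) and 2.12 ± 0.27 SE (limma adjusted p = 9.34e-05). Slc44a2, a choline-like carrier, went from 51.3, 44.8 and 39.7 to 28.3, 23.2 and 20.8 in wild type and fell by 0.89 ± 0.24 SE (limma adjusted p = 0.00771) there and by 0.93 ± 0.24 SE (limma adjusted p = 0.0073) in the knockout. Slc17a9, the vesicular nucleotide carrier, was called down at -0.80 and -0.99. Slc46a3, a lysosomal carrier, was at 1.88, 1.67 and 5.46 with PBS and 0.197, 0.182 and 0.179 with LPS in wild type, and its wild-type PBS mean rests largely on replicate 3.

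The serotonin carrier Slc6a4, the vesicular monoamine carrier Slc18a2 and Slc45a3 were called in neither genotype. Slc6a4 was at 2.29, 1.69 and 5.13 FPKM in wild type with PBS, 2.45, 3.16 and 3.65 with LPS, 1.95, 3.88 and 2.73 in the knockout with PBS and 1.99, 1.75 and 1.71 with LPS. Within each genotype the PBS library highest in all 3 of these genes, wild-type replicate 3 and knockout replicate 2, was also the highest in summed mast cell markers, at 584.9 and 708.5 FPKM. Not every mast cell marker followed the sum. Fcer1a was lowest in wild-type PBS replicate 3, at 14.4, 8.13 and 2.07 FPKM in the 3 libraries. Mcpt4 was at 212.9 in knockout PBS replicate 2 and at 213.4 in replicate 3. The part of mast cells in the levels of Slc6a4, Slc18a2 and Slc45a3 was not tested.

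The 4 symbols that carry the prefix but encode no transporter were Slc9a3r1 and Slc9a3r2 (NHERF1 and NHERF2, scaffold proteins that bind sodium-proton exchangers), Slc4a1ap and Slc7a6os. Slc9a3r2 (chr17:24639286-24650327) fell most of all members in both genotypes. It was at 8.65, 8.92 and 14.2 FPKM with PBS and 0.279, 0.366 and 0.155 with LPS in wild type, and at 18.9, 20.1 and 18.6 with PBS and 0.469, 0.269 and 0.213 with LPS in the knockout. The group means fell 39.8-fold and 60.5-fold, and on the log2 scale of FPKM + 1 Slc9a3r2 fell by 3.17 ± 0.16 SE (limma adjusted p = 2.1e-07) and by 3.94 ± 0.16 SE (limma adjusted p = 9.95e-08). Slc9a3r1 moved the other way, from 55.99, 54.1 and 47.6 to 67.1, 68.99 and 65.01 in wild type and from 54.6, 47.3 and 52.6 to 87.1, 86.7 and 94.2 in the knockout, with 0.35 ± 0.10 SE (limma adjusted p = 0.00993) and 0.78 ± 0.10 SE (limma adjusted p = 8.53e-05).

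**Figure D4:**
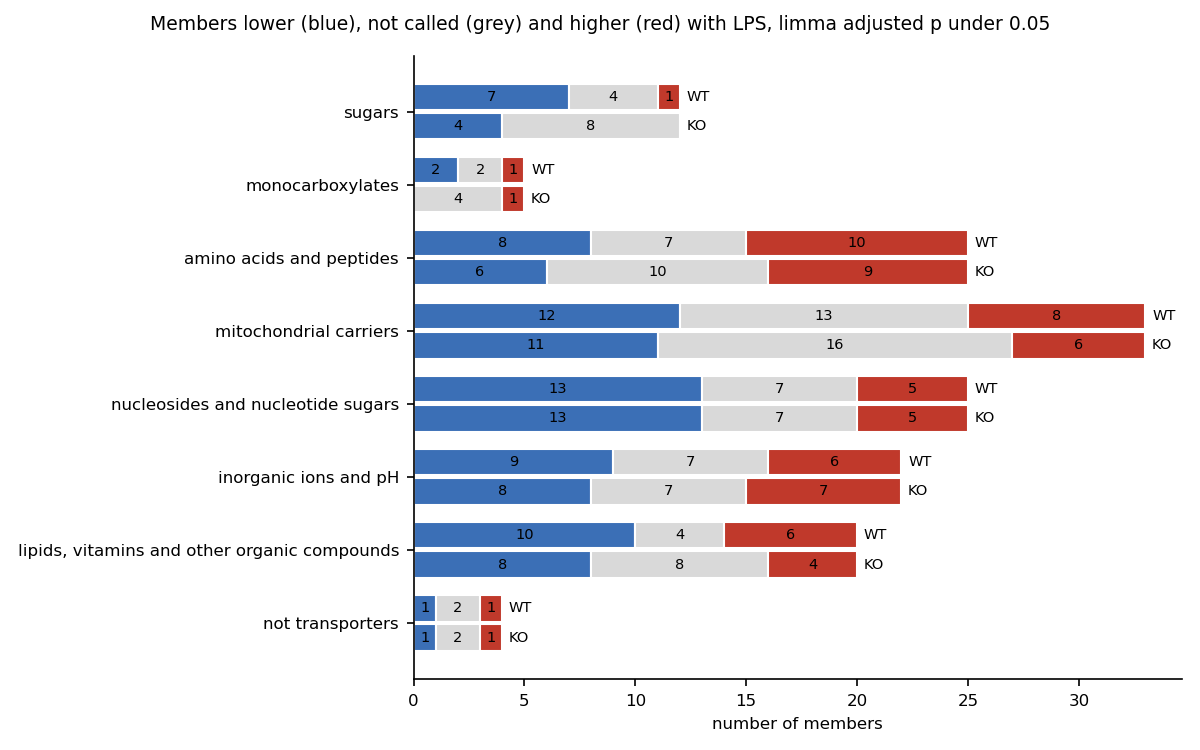
Number of members per role (horizontal axis) that were lower (blue), not called (grey) or higher (red) with LPS than with PBS at a limma adjusted p under 0.05, with wild type (WT) above the knockout (KO). The roles add up to 146; amino acid and peptide carriers have 10 members higher in wild type and 9 in the knockout, and nucleoside and nucleotide sugar carriers 13 lower in each, of which 10 and 8 were also lower with the median of ratios.

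Partners of these carriers and other transporters outside the nomenclature, from a list of 33, of which 32 were in the tables and 29 were tested, had 3 higher (10.3%) and 15 lower (51.7%) in wild type and 4 higher (13.8%) and 11 lower (37.9%) in the knockout. All genes had 24.8% and 37.4%, and 19.9% and 33.3%. With the median of ratios the partners became 4 and 12, and 7 and 8, against 33.8% and 29.2%, and 29.8% and 24.6%, of all genes. Mfsd2a, a carrier of lysophospholipids, rose by 3.11 ± 0.24 SE (limma adjusted p = 2.8e-06) in wild type and by 3.10 ± 0.24 SE (3.73e-06) in the knockout. Txnip, which curbs the surface level of glucose carriers, fell by 1.85 and 1.49. Bsg, the chaperone of Slc16a1 and Slc16a3 at the membrane, was not called, at -0.11 and 0.14.

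Knockout and wild type were compared within each treatment. With PBS, 0 of 146 members were called by limma (background 0.112%, of which 0.0203% higher and 0.0915% lower in the knockout), with 14 (9.59%, background 9.11%) at an unadjusted p under 0.05. With LPS 0 were called (background 0%), with 16 (11%, background 7.56%) at an unadjusted p under 0.05. The interaction, which subtracts the wild-type LPS response from that of the knockout, called 0 (background 0.0406%), with 17 (11.6%, background 9.61%) at an unadjusted p under 0.05. The 95% interval of a log2 difference reached 0.32 to either side of the estimate in the median member for each comparison of 2 groups and 0.45 to either side for the interaction.

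The member nearest to a call with PBS was Slc9a3r2, at 18.9, 20.1 and 18.6 FPKM in the knockout and 8.65, 8.92 and 14.2 in wild type. The groups did not overlap, and the log2 difference was 0.83 ± 0.16 SE (limma adjusted p = 0.118). Without wild-type PBS replicate 3, its highest wild-type value, the difference was 1.05 with an adjusted p of 0.0096, and the interaction was -0.99 with an adjusted p of 0.0222, against -0.78 and 0.339 with all libraries. With LPS Slc9a3r2 was near 0 in both genotypes, at group means of 0.266 FPKM in wild type and 0.317 in the knockout. Its interaction thus largely repeats the difference with PBS, with the sign turned. The next by p were Slc25a20, the carnitine-acylcarnitine carrier of fatty acid oxidation, and Slc25a37, mitoferrin, which takes iron into mitochondria. Slc25a20 was at 16.99, 16.3 and 13.7 FPKM in wild type with PBS and 10.4, 11.5 and 7.39 in the knockout, without overlap, and with LPS at 7.57, 9.09 and 7.62 in wild type and 11.3, 7.28 and 11.1 in the knockout. Its difference with PBS was -0.65 ± 0.18 SE (limma adjusted p = 0.308). Within wild type Slc25a20 was called down with LPS (-0.87) and within the knockout it was not (0.02), and its interaction was 0.89 ± 0.25 SE (limma adjusted p = 0.318). Slc25a37 was at 15.6, 24.7 and 19.4 FPKM in wild type with PBS and between 11.75 and 16.32 in the other 9 libraries, with a difference of -0.53 ± 0.16 SE (limma adjusted p = 0.356) between genotypes under PBS. Its fall with LPS in wild type, -0.47 ± 0.16 SE (limma adjusted p = 0.0218), was not called with the median of ratios.

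With LPS the smallest p belonged to Slc9a3r1, at 87.1, 86.7 and 94.2 FPKM in the knockout and 67.1, 68.99 and 65.01 in wild type, which do not overlap, with 0.41 ± 0.10 SE (limma adjusted p = 0.281). Slc16a3 was at 43.4, 28.4 and 62.8 in the knockout and 20.5, 29.6 and 19.7 in wild type with LPS, which overlap by 1 library, with 0.87 ± 0.32 SE (limma adjusted p = 0.61). Summed neutrophil markers, mostly S100a8 and S100a9, also differed between these groups, at 707.2 to 2655 FPKM in the knockout and 151.2 to 276.8 in wild type. The neutrophil marker Csf3r overlapped, at 63.35, 48.34 and 79.3 in the knockout and 52.2, 49.3 and 38.9 in wild type. The part of neutrophils in the differences of Slc9a3r1 and Slc16a3 was not tested. Slc27a4, which activates and takes up long-chain fatty acids, was at 11.5, 17.4 and 10.8 FPKM with PBS and 2.03, 3.67 and 2.84 with LPS in wild type and at 10.4, 10.2 and 7.08 with PBS and 5.21, 3.61 and 6.24 with LPS in the knockout. It fell by 1.88 ± 0.23 SE (limma adjusted p = 4.27e-05) in wild type and by 0.77 ± 0.23 SE (limma adjusted p = 0.0143) in the knockout, and the interaction was 1.11 ± 0.32 SE (limma adjusted p = 0.33).

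Slc7a11 and Slc48a1 had the largest interactions in size, and that of Slc48a1 rested largely on 1 library. Slc7a11 (chr3:49892526-50443614) is the cystine-glutamate exchanger that feeds glutathione synthesis, and Slc48a1 (chr15:97778520-97792692) exports haem from lysosomes after red cells are digested. Slc7a11 was at 13.3, 19.98 and 6.05 FPKM with PBS and 4.09, 2.06 and 4.5 with LPS in wild type, and at 6.86, 4.97 and 4.33 with PBS and 17.1, 4.98 and 7 with LPS in the knockout. It fell by 1.54 ± 0.44 SE (limma adjusted p = 0.00973) in wild type, while the knockout difference was 0.60 ± 0.44 SE (limma adjusted p = 0.273) with overlap. The interaction of Slc7a11 was 2.14 ± 0.62 SE (limma adjusted p = 0.33), and 1.68 without knockout LPS replicate 1. Slc48a1 was at 18.8, 53.98 and 29 with PBS and 8.67, 6.25 and 7.58 with LPS in wild type, and at 16.7, 16.6 and 15.7 with PBS and 33.7, 5.44 and 4.86 with LPS in the knockout. It fell by 1.92 ± 0.56 SE (limma adjusted p = 0.0112) in wild type, with -0.66 ± 0.56 SE (limma adjusted p = 0.341) in the knockout, and its interaction was 1.26 ± 0.80 SE (limma adjusted p = 0.627), and 0.43 without knockout LPS replicate 1. The knockout LPS library highest in both genes, replicate 1, was 1 of the 2 libraries rich in haemoglobin, and the wild-type PBS library highest in both, replicate 2, had the most haemoglobin of the PBS libraries, 327 FPKM. The other haemoglobin-rich library, wild-type LPS replicate 2, was the lowest of its group in both. Without the 2 haemoglobin-rich libraries the interactions were 1.41 for Slc7a11 and 0.32 for Slc48a1, with adjusted p of 0.548 and 0.875. The part of red cells, or of any other cell type, in the levels of Slc7a11 and Slc48a1 was not tested.

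**Figure D5:**
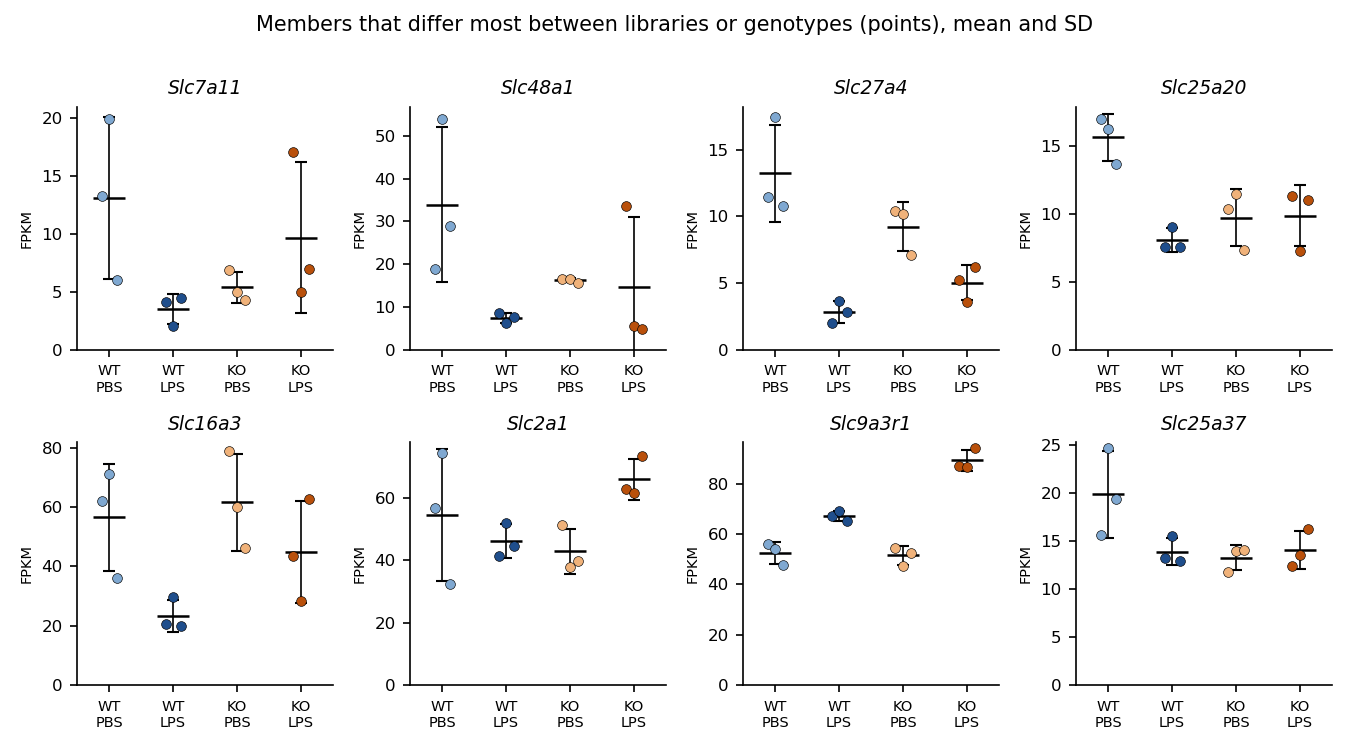
FPKM (vertical axes, linear from 0) of 8 members with small p-values or wide spread between genotypes, in the 4 groups (horizontal axes; WT wild type, KO lactoferrin knockout). Points are libraries, with the mean and 1 SD (n = 3); the knockout LPS points of Slc7a11 and Slc48a1 hold 1 high library, at 17.1 and 33.7 FPKM, and the 3 knockout LPS points of Slc9a3r1 lie above the wild-type ones.

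Of the members, 23 overlap another protein-coding gene in GENCODE, 21 of them a gene on the opposite strand, and the sources used here do not say whether counting used strand. Among the members described these are Slc7a5 (Gm20388), Slc19a1 (Col18a1), Slc6a9 (Ccdc24 and B4galt2), Slc15a3 (Tmem132a), Slc15a4 (Glt1d1), Slc31a1 (Cdc26), Slc35a4 (Apbb3), Slc5a6 (Atraid) and Slc48a1 (Hdac7). The overlap ran from 29 bases in Slc48a1 to 26545 in Slc7a5, where it covers the whole gene. The values of these members may hold reads of their neighbours.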

How the data were processed

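RNA of peritoneal lavage cells from wild-type and lactoferrin knockout mice given PBS or LPS was measured in 12 libraries, 3 a group, grouped by the labels. The authors deposited 1 table per library with 21878 rows, whose unit is not stated; they were taken as FPKM because they are not whole and Cufflinks is among the tools. The authors made these FPKM values with tools that, per the submitters' processing notes, include TopHat, Cufflinks, HTSeq and DESeq on GRCm38, without versions. The sources used here give no settings, annotation, filters or strand. The 27 symbols turned into dates were left out, which left 21851.

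Members were chosen from the level, and the members and lists were chosen with earlier results of these data known. Slc4a1ap and Slc7a6os were moved to the non-transporters after the values were seen. All 9841 genes that reached a mean of 1 FPKM were fitted with limma 3.58.1 in R 4.3.3 on log2(FPKM + 1), with a mean per group over all 12 libraries (8 residual degrees of freedom), trend and robust variances. Tests were two-sided, with Benjamini-Hochberg adjustment over all 9841 genes per contrast and a threshold of 0.05. The median SE was 0.141, and 0.199 for the interaction. Named members were called ones with at least 5 FPKM in the higher group, the 10 highest and 10 lowest per LPS contrast, up to 3 per role by change and by level, and a fixed set of well-known carriers. The 10 highest and 10 lowest were taken only from members whose groups did not overlap. For these a lack of overlap was part of the choice and is given as description. Members named outside this rule, such as Slc36a1, Slc37a2, Slc35a1, Slc12a2 and Slc6a4, were chosen after their values were seen; in the genotype contrasts, where none was called, those with the smallest p. FPKM hold no depth, so precision comes from the spread between libraries. Alternatives were an offset of 0.1, no filter, median-of-ratios scaling, limma without trend and robust, only the 6 libraries compared, a replicate block, each library left out, and the 2 haemoglobin-rich libraries left out. Positions are from GENCODE on GRCm38, promoters from RefSeq on GRCm38.p6. The test was checked on simulated data drawn from its own model with few genes changed. That check does not cover scaling or libraries that stand apart. Some members are not reported here.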

Additional observations from a re-analysis of the deposited data

How the results depend on the processing

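The number of members called with LPS in wild type was 91 to 102 with a library left out and 91 to 101 under the other alternatives, against 100, and in the knockout 73 to 95 and 76 to 94, against 84. Without the 2 haemoglobin-rich libraries it was 94 and 76. Without wild-type PBS replicate 3, 1 member was called between genotypes under PBS and 1 in the interaction, Slc9a3r2 in both; leaving out single libraries gave 0 to 1 in each of these and 0 between genotypes under LPS. Of 76 called values of members named by the stated rule, 68 kept their call under all alternatives run. Over 1444 alternative values 49 lost it and 0 reversed. Members described outside that rule, such as Slc36a1, Slc35a2 and Slc37a4, were not in this count. The calls lost within this count were those of Slc31a1 and Slc31a2 in both genotypes, of Slc25a37 in wild type and of Slc25a1, Slc27a4 and Slc35a4 in the knockout. Deviations from the group means correlated between -0.254 and 0.19 in libraries of the same replicate number. Under PBS each knockout library correlated best with the wild-type library of its own number, at 0.137, 0.085 and 0.099. With 3 libraries a group, these correlations cannot show whether the numbers pair the libraries. With a replicate block 100 and 81 members were called with LPS in wild type and the knockout, and 0 in each of the other 3 contrasts. Levels near 1 FPKM may rest on few reads, which cannot be known without depth, and the offset understates their change.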

Other observations

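A further 7 solute carrier symbols were below 1 FPKM in the mean of 12 libraries but above it in a group mean, and were not tested. The highest in wild type with PBS was Slc16a7, a monocarboxylate carrier, at 1.84 FPKM in the group mean, against 0.261 with LPS, and in the knockout it was at 1.24 and 0.236. The urate carrier Slc2a9 was at 1.73 and 0.521 in wild type and at 1.19 and 0.421 in the knockout. Slc25a23, Slc26a11, Slc27a1 and Slc27a3 likewise had lower group means with LPS in both genotypes. In wild type with PBS the mean of Slc16a7 rests largely on replicate 3, at 0.933, 1.03 and 3.56 FPKM. Its replicates 1 and 2 lay below the 3 knockout PBS libraries, at 1.11, 1.29 and 1.31. The wild-type PBS means of Slc2a9 (1.16, 0.718 and 3.32) and Slc25a23 (0.892, 0.791 and 3.09) also rest largely on replicate 3. Slc7a3, a carrier of cationic amino acids, was at 0.0128 with PBS and 1.03 with LPS in wild type and at 0.0262 and 0.667 in the knockout.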
